A study of Mus musculus with 13 samples.

Results

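The 57 genes described here serve the entry of secretory proteins into the endoplasmic reticulum (ER), their folding there and the removal of those that do not fold. They were listed by gene symbol and function, with no threshold on a measured value, and fall into 8 for signal recognition, 10 for the translocon, 5 for the signal peptidase, 7 for the oligosaccharyltransferase, 11 chaperones and co-chaperones, 7 disulfide isomerases and oxidases, 7 for ER-associated degradation and 2 stress transcription factors. All 57 are among the 23364 genes of the deposited files, and all 57 reached 1 FPKM (fragments per kilobase of transcript, scaled to the number of mapped reads, a level per length) in at least 1 sample. The 13 samples were RNA-seq libraries of whole submandibular glands of C57BL/6 mice, of which 3 were from E14.5 (embryonic day) and 2 each from E16.5, E18.5, postnatal day 5 (P5), 4 weeks (4wk) and 12 weeks (12wk). Glands of 3 animals were pooled in a sample at E14.5, and glands of 2 at E16.5 and at E18.5. The 4wk and 12wk animals were males, whereas sex was not determined in embryos and at P5, so that sex and adult age cannot be told apart. The stages compared were embryo (7 samples), neonatal P5 (2 samples) and adult (4 samples).

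Proteins bound for saliva carry a signal peptide, which the signal recognition particle binds as it leaves the ribosome and hands over to its receptor on the ER. The chain passes through the Sec61 channel, loses the signal peptide, receives N-linked glycans and folds with the help of chaperones and disulfide isomerases, while chains that fail to fold are drawn back to the cytosol and degraded. When unfolded chains accumulate, the sensors Ire1, Perk and Atf6 start the unfolded protein response, which raises many of these genes and is also active in healthy acinar, pancreatic and plasma cells.

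The depth recovered from the smallest steps of the FPKM values was between 5820000 reads on genes in 4wk replicate 1 and 48310000 reads in P5 replicate 1. At 4wk and 12wk the 10 highest genes held 48.1% to 61.1% of all FPKM, against 29.2% to 31.1% at P5 and less in the embryo. Values scaled to a total depend on such genes, so every comparison is given for the values as deposited and after rescaling by median-of-ratios factors. Between embryo and adult the median log2 fold change of all genes was -0.75 as deposited and -0.05 after rescaling. A call needed a change of 1 or more in either direction on the log2(FPKM + 1) scale and an adjusted p below 0.1 (limma, two-sided, Benjamini-Hochberg over all genes tested), and fold changes are the later stage or time point minus the earlier. In whole glands, fewer cells of a type and less RNA per cell cannot be told apart. The 6 gland epithelium markers summed to between 327 and 1670 FPKM in every sample. The summed FPKM of 10 acinar markers was 86.2 in E14.5 replicate 1, 476 and 551 in the other E14.5 samples, and 112000 to 186000 in the adult samples. These markers, which include secreted products such as Pip, Prol1 and Bpifa2, thus rose between embryo and adult, and their part was not tested. Their sum did not move with the members in every step. It was 35800 and 52000 at E18.5 and 91900 and 101000 at P5, where most members fell, and it was lower at 12wk than at 4wk. E14.5 replicate 1 also held 3050 FPKM of 4 erythroid markers, against 442 and 785 in the other E14.5 samples.

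The promoters of the members were searched for known response elements. The unfolded protein response raises many of these genes, so a choice of genes by function is not independent of its elements. RefSeq promoter windows (GRCm38.p6, 250 bases before to 50 after the start of the gene) were matched for 46 of the 57 genes, and the ER stress element, which is CCAAT and CCACG with 9 bases of any kind between them, was searched on both strands. It was present in 10 of the 46, or 21.7%, against 0.137% of all 27025 genes with a window. The second form of the element, ATTGG and CCACG with 1 base between them, was present in Herpud1 and Dnajb11, or 4.35% of the members against 0.0444% of all genes. The unfolded protein response element TGACGTGG and the amino acid response element TGATGCAAT had no match in the windows of the members, and were present in 0.714% and 0.222% of all genes. Such matches describe the letters of the window and are not evidence of binding. The members not matched were Srp19, Srp68, Sec61a1, Ssr2, Spcs3, Sec11c, Tram1, Ostc, Hyou1, Manf and Derl1.

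The stretches below hold the element of 6 members called higher between embryo and adult on at least one of the scales used below, Derl3 (chr10:75893222-75893280, minus strand), Ero1lb (chr13:12565662-12565720, minus strand), Herpud1 (chr8:94386357-94386407, plus strand), Hspa5 (chr2:34772005-34772063, plus strand), Creld2 (chr15:88819500-88819558, minus strand) and Dnajc3 (chr14:118937807-118937865, plus strand). Canx (chr11:50325780-50325838, minus strand) and Pdia6 (chr12:17266471-17266529, plus strand) are shown beside them because they hold the same element and were not called higher between embryo and adult. Each is written 5′ to 3′ on the strand named, with 20 bases on either side, and capitals mark the fixed letters of the element.
Derl3: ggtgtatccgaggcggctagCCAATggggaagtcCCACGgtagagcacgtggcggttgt
Ero1lb: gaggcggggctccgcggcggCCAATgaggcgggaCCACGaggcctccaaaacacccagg
Herpud1: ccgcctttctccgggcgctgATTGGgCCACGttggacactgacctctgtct
Hspa5: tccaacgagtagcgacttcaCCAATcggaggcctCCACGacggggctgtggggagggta
Creld2: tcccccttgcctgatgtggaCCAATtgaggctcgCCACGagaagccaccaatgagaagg
Dnajc3: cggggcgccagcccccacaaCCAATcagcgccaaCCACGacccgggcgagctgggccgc
Canx: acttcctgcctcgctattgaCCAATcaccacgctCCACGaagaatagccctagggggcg
Pdia6: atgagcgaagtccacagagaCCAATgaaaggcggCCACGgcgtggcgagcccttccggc
The element lies on the strand of the gene in Herpud1, Hspa5, Dnajc3, Canx and Pdia6, and on the opposite strand in Derl3, Ero1lb and Creld2. In the direction of the gene, it reaches from 65 to 47 bases before the start in Hspa5, and from 201 to 183 bases before it in Ero1lb. Calr, Syvn1 and Hsp90b1 also hold the first form, Hsp90b1 with 2 matches.

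Between embryo and adult, as deposited, 13 of the 57 genes were called higher and 1 lower, or 22.8% and 1.75% of them, while 5.58% of all genes tested were called higher and 38.0% lower. After rescaling, 29 members were higher and none lower in limma, with none lower at an unadjusted p below 0.05 either, while 13.8% of all genes were called higher and 14.7% lower. The median log2 fold change of the members was 0.12 as deposited and 1.06 rescaled, beside the medians of all genes given above. ER-associated degradation held 5 of the 13 genes called as deposited, and the chaperones held 4. Roles differed in their median log2 fold change after rescaling, with 2.34 for ER-associated degradation, 1.47 for chaperones, 1.19 for the 2 stress transcription factors, 1.12 for the signal peptidase, 1.01 for the translocon, 0.85 for signal recognition, 0.60 for the oligosaccharyltransferase and 0.43 for disulfide isomerases and oxidases.

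**Figure D1:**
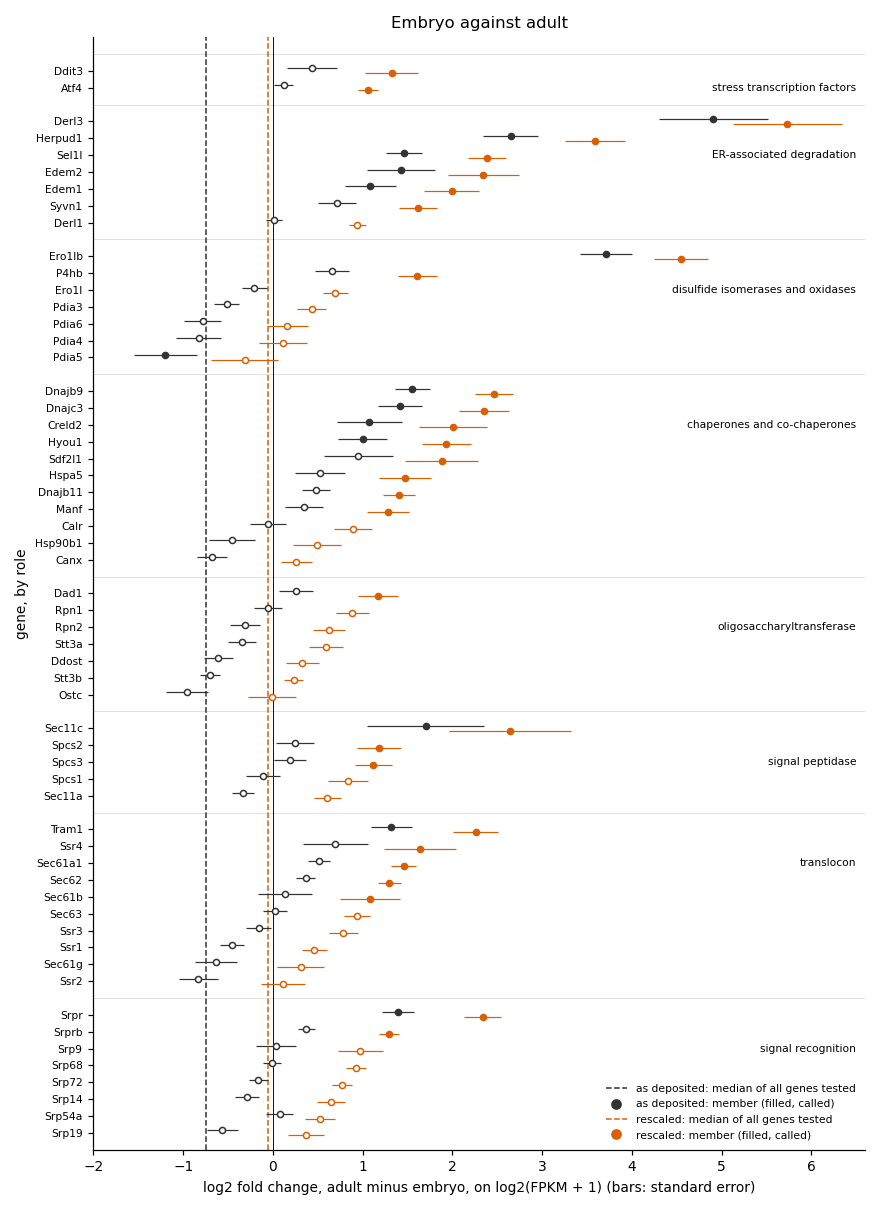
Log2 fold change between embryo (7 samples) and adult (4 samples) of each of the 57 members, by role, on the values as deposited (black) and rescaled (orange). Points are the estimates from limma with their standard errors, filled where called, and dashed lines are the medians of all genes tested at -0.75 and -0.05. Derl3, Ero1lb and Herpud1 lie farthest to the right, and Pdia5 is the lowest on both scales.

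Within signal recognition, the receptor of the particle rose, and no protein of the particle itself was called. Srpr encodes the receptor subunit alpha, a GTPase that docks the ribosome at the membrane. Its levels were 69, 70.4 and 70.3 FPKM at E14.5, 79.6 and 85.3 FPKM at E16.5, 119 and 128 FPKM at E18.5, 146 and 156 FPKM at P5, 240 and 225 FPKM at 4wk, and 220 and 228 FPKM at 12wk. All adult samples lay above all embryonic samples, with a log2 fold change between embryo and adult of 1.39 (SE 0.17, adjusted p = 6.8e-06) as deposited and 2.34 (SE 0.20, adjusted p = 6.1e-07) rescaled. Srprb, the membrane-anchored beta subunit, was called after rescaling only, at 1.29 (SE 0.11, adjusted p = 4.9e-07). The particle proteins Srp9, Srp14, Srp19, Srp54a, Srp68 and Srp72 were not called between embryo and adult on either scale, with log2 fold changes from -0.56 to 0.07 as deposited and from 0.37 to 0.97 rescaled. Srp19, which helps to assemble the particle, had the smallest of the rescaled changes. It was measured at 60.6, 70.4 and 68.9 FPKM at E14.5, 123 and 70.6 FPKM at E16.5, 87 and 105 FPKM at E18.5, 66.3 and 66.7 FPKM at P5, 55.5 and 52.2 FPKM at 4wk, and 53.3 and 57.7 FPKM at 12wk. As deposited, E16.5 replicate 1 and E18.5 replicate 2 were the highest, and all adult samples lay below all embryonic ones. After rescaling the adult samples, at 77.7 to 91.2 FPKM, lay within the embryonic range of 45.1 to 98.6 FPKM. Srp54a, the GTPase that binds the signal peptide, was between 0.524 and 1.35 FPKM in every sample. Srp54b and Srp54c lie beside it as near-identical copies, and reads that mapped to several places were left out by the authors, so its level is uncertain.

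In the translocon, Tram1 was the only gene called as deposited. It lies beside the Sec61 channel and helps chains to enter the membrane. Its levels were measured at 40.9, 54.4 and 51.7 FPKM at E14.5, 54.3 and 56.4 FPKM at E16.5, 103 and 101 FPKM at E18.5, 99.7 and 100 FPKM at P5, 161 and 145 FPKM at 4wk, and 160 and 165 FPKM at 12wk. The adult samples did not overlap the embryonic ones, and the log2 fold change was 1.32 (SE 0.23, adjusted p = 0.00011) as deposited and 2.26 (SE 0.26, adjusted p = 5.9e-06) rescaled. Sec61b, the small beta subunit of the channel, was the highest member of the group. Its levels were 182, 199 and 185 FPKM at E14.5, 462 and 286 FPKM at E16.5, 435 and 553 FPKM at E18.5, 321 and 335 FPKM at P5, 336 and 336 FPKM at 4wk, and 318 and 322 FPKM at 12wk. As deposited, the E14.5 samples were the lowest and the E18.5 samples lay above every adult sample. Only the rescaled change was called, at 1.08 (SE 0.33, adjusted p = 0.012). That call was lost with a replicate block and without any one of the E14.5 samples, where the log2 fold change was between 0.95 and 0.98.
The pore subunit Sec61a1 (1.46, SE 0.14, adjusted p = 1.2e-06), Sec62 (1.30, SE 0.13, adjusted p = 2.2e-06), which serves entry after translation, and Ssr4 (1.64, SE 0.40, adjusted p = 0.0029), the delta subunit of the translocon-associated protein complex, were also called after rescaling only. Sec61g, Sec63, Ssr1, Ssr2 and Ssr3 were not called on either scale, with log2 fold changes from -0.83 to 0.02 as deposited. Ssr2, the beta subunit of the translocon-associated complex, had the smallest rescaled change of the group. It stood at 189, 189 and 182 FPKM at E14.5, 297 and 230 FPKM at E16.5, 335 and 414 FPKM at E18.5, 215 and 220 FPKM at P5, 140 and 135 FPKM at 4wk, and 134 and 151 FPKM at 12wk. Its highest values were those of both E18.5 samples.

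In the signal peptidase complex, one of the catalytic subunits was called and the other was not. Sec11a and Sec11c are alternative catalytic subunits that cleave signal peptides. Sec11c was measured at 20.9, 28.7 and 26.6 FPKM at E14.5, 139 and 111 FPKM at E16.5, 225 and 288 FPKM at E18.5, 191 and 203 FPKM at P5, 248 and 282 FPKM at 4wk, and 249 and 242 FPKM at 12wk. Its steepest step lay between E14.5 and E16.5, where the groups did not overlap, with a fold of the mean levels of 4.93 and a log2 fold change of 2.26 (SE 0.16, adjusted p = 1.4e-05) as deposited and 2.25 (SE 0.21, adjusted p = 0.00011) rescaled. Between embryo and adult the log2 fold change was 1.70 (SE 0.65, adjusted p = 0.028) as deposited and 2.64 (SE 0.68, adjusted p = 0.0043) rescaled, and the deposited call was lost when the 12wk samples alone stood for the adult (log2 fold change of 1.65, adjusted p = 0.13 with limma). Sec11a, in contrast, was 117, 115 and 113 FPKM at E14.5, 141 and 91.8 FPKM at E16.5, 118 and 127 FPKM at E18.5, 77.6 and 90.3 FPKM at P5, 84.5 and 92 FPKM at 4wk, and 92.5 and 102 FPKM at 12wk. Its samples overlapped between stages as deposited, and it was not called on either scale, with 0.61 (SE 0.15, adjusted p = 0.0031) rescaled. The accessory subunits Spcs2 (1.19, SE 0.25, adjusted p = 0.00097) and Spcs3 (1.12, SE 0.21, adjusted p = 0.00043) were called after rescaling only, and Spcs1 had a log2 fold change of -0.11 as deposited and 0.84 rescaled.

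The oligosaccharyltransferase transfers N-linked glycans to the entering chain. None of its 7 genes was called as deposited (limma, 4 of them lower at an unadjusted p below 0.05 and none higher), against 5.58% of all genes higher and 38.0% lower. After rescaling Dad1 alone was called higher, against 13.8% of all genes. With 7 genes, the count of higher calls does not set this role apart from all genes. Dad1, a small subunit of the complex, had 22.3, 21.1 and 19.8 FPKM at E14.5, 31 and 24.3 FPKM at E16.5, 25.6 and 36.3 FPKM at E18.5, 25.9 and 26.4 FPKM at P5, 20.1 and 30.3 FPKM at 4wk, and 36.9 and 37.5 FPKM at 12wk, and a log2 fold change of 1.17 (SE 0.22, adjusted p = 0.00046) rescaled. Ostc, found in the form of the enzyme that works during translation, was the highest of the group on average. It was measured at 173, 147 and 144 FPKM at E14.5, 274 and 167 FPKM at E16.5, 289 and 353 FPKM at E18.5, 138 and 153 FPKM at P5, 111 and 106 FPKM at 4wk, and 107 and 105 FPKM at 12wk. As deposited, its E18.5 level lay above all others and its adult level was the lowest. Its log2 fold change between embryo and adult was -0.95 (SE 0.23, adjusted p = 0.0021) as deposited and -0.01 (SE 0.27, adjusted p = 0.97) rescaled. The catalytic subunits Stt3a and Stt3b and the further subunits Rpn1, Rpn2 and Ddost had log2 fold changes from -0.70 to -0.05 as deposited and from 0.23 to 0.89 rescaled, none of which was called.

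Of the 11 chaperones and co-chaperones, 4 were called higher between embryo and adult as deposited and 8 after rescaling. Hspa5 (BiP, mm9 chr2:34627490-34632051), the Hsp70 chaperone of the ER and the classical target of the unfolded protein response, was the highest chaperone on average. Its levels were 436, 418 and 450 FPKM at E14.5, 291 and 305 FPKM at E16.5, 430 and 421 FPKM at E18.5, 291 and 319 FPKM at P5, 377 and 323 FPKM at 4wk, and 837 and 955 FPKM at 12wk. Values before 12wk lay between 291 and 450, lowest at E16.5 and P5, and both 12wk samples stood far above the rest. Its log2 fold change between embryo and adult was 0.53 (SE 0.28, adjusted p = 0.096) as deposited, which was not called, and 1.47 (SE 0.29, adjusted p = 0.00063) rescaled. Hsp90b1 (Grp94), the Hsp90 chaperone of the ER, was 453, 532 and 573 FPKM at E14.5, 342 and 343 FPKM at E16.5, 515 and 491 FPKM at E18.5, 242 and 262 FPKM at P5, 217 and 226 FPKM at 4wk, and 480 and 519 FPKM at 12wk. It fell short of a call on both scales, with -0.45 (SE 0.25, adjusted p = 0.12) as deposited and 0.49 (SE 0.27, adjusted p = 0.13) rescaled. The E14.5 and 12wk samples overlapped as deposited. After rescaling they did not, at 338, 411 and 439 FPKM at E14.5 and 705 and 820 FPKM at 12wk.
Dnajb9 (ERdj4), a J-domain protein that works with Hspa5, had the largest rescaled change of the chaperones. It was measured at 14.3, 16.3 and 15.3 FPKM at E14.5, 11.9 and 10.6 FPKM at E16.5, 20.7 and 20.3 FPKM at E18.5, 18.8 and 18.1 FPKM at P5, 46.8 and 34 FPKM at 4wk, and 46.5 and 64 FPKM at 12wk. The adult samples lay above all others, and the log2 fold change was 1.55 (SE 0.19, adjusted p = 6.6e-06) as deposited and 2.46 (SE 0.21, adjusted p = 5.4e-07) rescaled. Dnajc3 (p58IPK), another co-chaperone of Hspa5, changed by 1.42 (SE 0.25, adjusted p = 0.00013) as deposited, and its levels ran from 28.5 FPKM in E14.5 replicate 1 to 139 in 12wk replicate 2. Hyou1, which exchanges the nucleotide of Hspa5, changed by 1.00 (SE 0.27, adjusted p = 0.0041) as deposited. The Hyou1 call was lost without E16.5 replicate 1, E18.5 replicate 2 or either 12wk replicate, with log2 fold changes from 0.75 to 0.97.
Creld2, an ER protein with disulfide isomerase activity, was 29, 39.6 and 41.6 FPKM at E14.5, 44.5 and 42.3 FPKM at E16.5, 52.8 and 64.4 FPKM at E18.5, 36.2 and 34.2 FPKM at P5, 56.1 and 41.6 FPKM at 4wk, and 173 and 185 FPKM at 12wk. As deposited it was called at 1.08 (SE 0.36, adjusted p = 0.015), which fell to 0.98 without E14.5 replicate 1, and to 0.78 and 0.75 without either 12wk replicate. Sdf2l1, a partner of J-domain proteins in the Hspa5 cycle, was 20.7, 27.5 and 27 FPKM at E14.5, 37.3 and 34.1 FPKM at E16.5, 53.4 and 59.5 FPKM at E18.5, 30.8 and 30.3 FPKM at P5, 34.1 and 38.9 FPKM at 4wk, and 118 and 138 FPKM at 12wk. It was called after rescaling only, at 1.88 (SE 0.41, adjusted p = 0.0014). Dnajb11 (1.41, SE 0.18, adjusted p = 1.6e-05) and Manf (1.29, SE 0.24, adjusted p = 0.00037), a small protein that binds Hspa5, were also called after rescaling only.
The lectin chaperones Calr and Canx, which hold glycoproteins during folding, were not called between embryo and adult. Canx, with the smallest rescaled change of the group, was 159, 157 and 166 FPKM at E14.5, 94.1 and 102 FPKM at E16.5, 132 and 123 FPKM at E18.5, 70.6 and 75.6 FPKM at P5, 72.7 and 70.5 FPKM at 4wk, and 90.8 and 93.3 FPKM at 12wk. Its E14.5 samples were the highest of all 13 as deposited. Calr was between 305 and 633 FPKM in all samples, with both 12wk samples the highest.

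**Figure D2:**
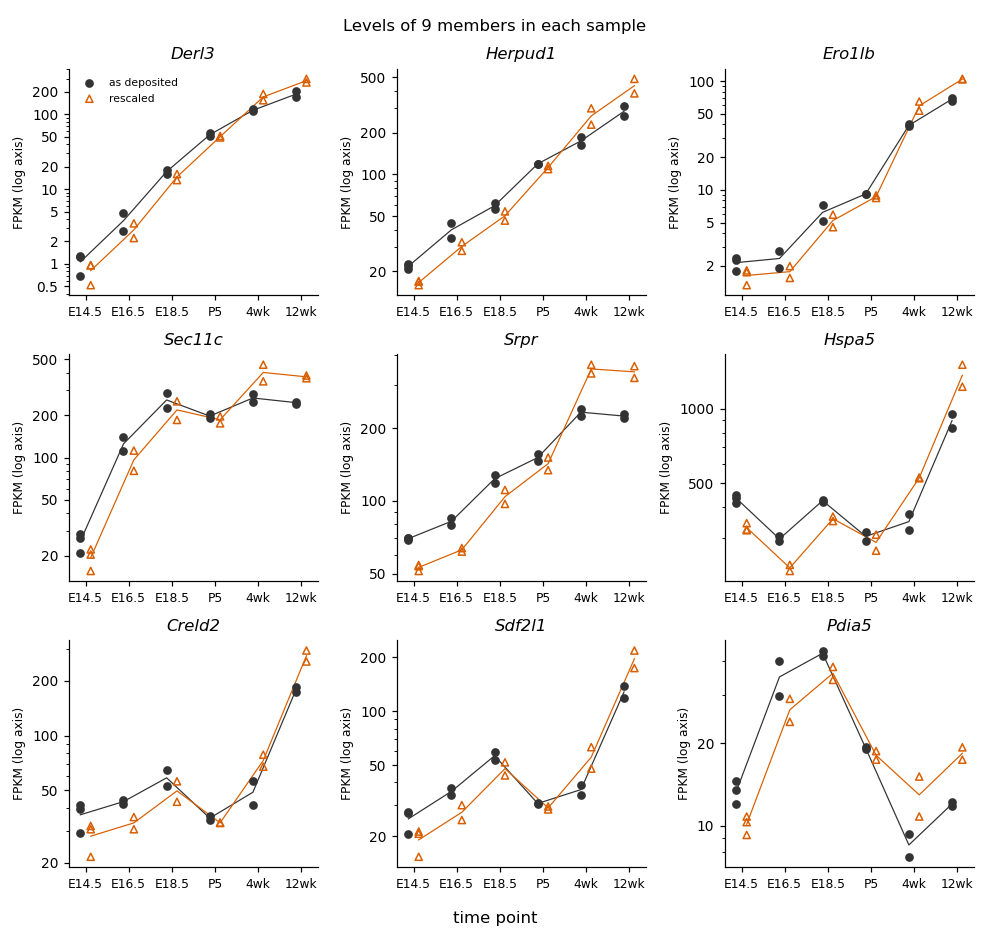
FPKM (log axis) of 9 members in each of the 13 samples by time point, as deposited (filled circles) and rescaled (open triangles), with lines through the means of the replicates. Derl3, Herpud1 and Ero1lb climbed at nearly every time point, Hspa5, Creld2 and Sdf2l1 turned up at 12wk, and Pdia5 was highest at E18.5.

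Among disulfide isomerases and oxidases, one gene rose strongly and one was called lower. Ero1lb (mm9 chr13:12658150-12701793) encodes an oxidase that recharges protein disulfide isomerase and is known from pancreatic and other secretory cells. Its levels were 1.79, 2.35 and 2.29 FPKM at E14.5, 1.93 and 2.75 FPKM at E16.5, 7.22 and 5.21 FPKM at E18.5, 9.18 and 9.19 FPKM at P5, 38.3 and 40.1 FPKM at 4wk, and 70.6 and 66.3 FPKM at 12wk. No adult sample overlapped an embryonic or P5 sample, the mean at 12wk was 32.0 times that at E14.5, and the log2 fold change between embryo and adult was 3.71 (SE 0.29, adjusted p = 1.2e-07) as deposited and 4.54 (SE 0.30, adjusted p = 5.5e-08) rescaled. Its relative Ero1l, which cells express more widely, was between 12.1 and 25.6 FPKM in all samples and was not called between embryo and adult, with 0.70 (SE 0.14, adjusted p = 0.00069) rescaled.
P4hb, protein disulfide isomerase itself, was the highest of the group. It was measured at 406, 358 and 372 FPKM at E14.5, 414 and 442 FPKM at E16.5, 636 and 648 FPKM at E18.5, 561 and 596 FPKM at P5, 652 and 634 FPKM at 4wk, and 791 and 831 FPKM at 12wk. It was called after rescaling only, at 1.61 (SE 0.22, adjusted p = 3.3e-05). Pdia5, a further member of the isomerase family, was 14.54, 11.97 and 13.48 FPKM at E14.5, 29.75 and 39.97 FPKM at E16.5, 41.49 and 43.51 FPKM at E18.5, 18.97 and 19.27 FPKM at P5, 7.697 and 9.308 FPKM at 4wk, and 11.83 and 12.19 FPKM at 12wk. It was the only member called lower as deposited, at -1.20 (SE 0.35, adjusted p = 0.0069), but after rescaling its change was -0.31 (SE 0.37, adjusted p = 0.48). As deposited the stages overlapped, since its E14.5 and 12wk samples lay at like levels, with a peak at E18.5 and the lowest values at 4wk. Pdia3, Pdia4 and Pdia6 were not called between embryo and adult, with log2 fold changes from -0.83 to -0.51 as deposited and from 0.11 to 0.43 rescaled.

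ER-associated degradation had the largest median change of the roles and held the member with the largest change. Derl3 (mm9 chr10:75356143-75358686) encodes a derlin, a membrane protein through which misfolded chains leave the ER. It was measured at 0.699, 1.24 and 1.26 FPKM at E14.5, 2.77 and 4.81 FPKM at E16.5, 16.1 and 18.2 FPKM at E18.5, 55.9 and 50.6 FPKM at P5, 110 and 116 FPKM at 4wk, and 203 and 169 FPKM at 12wk. Each time point lay above the one before it with no overlap of samples, the mean at 12wk was 174 times that at E14.5, and the log2 fold change between embryo and adult was 4.91 (SE 0.61, adjusted p = 6.5e-06) as deposited and 5.73 (SE 0.61, adjusted p = 3.3e-06) rescaled. The pseudocount of 1 FPKM holds that fold change down, since the E14.5 levels were themselves near 1 FPKM. Its relative Derl1 was 37.5, 37.8 and 35.3 FPKM at E14.5, 39.8 and 38.4 FPKM at E16.5, 40.2 and 39.6 FPKM at E18.5, 40.7 and 39.4 FPKM at P5, 40.1 and 35.1 FPKM at 4wk, and 39 and 41.1 FPKM at 12wk. Those values are nearly level as deposited, with a log2 fold change of 0.01 (SE 0.09, adjusted p = 0.88). After rescaling the change was 0.94 (SE 0.10, adjusted p = 2.5e-06), just short of the fold minimum, and the adult samples lay above all embryonic ones.
Herpud1 (mm9 chr8:96910338-96919277), an adaptor of the ubiquitin ligase complex of the ER membrane, was 22.6, 21.9 and 20.8 FPKM at E14.5, 35 and 44.7 FPKM at E16.5, 56.7 and 62.1 FPKM at E18.5, 119 and 119 FPKM at P5, 163 and 185 FPKM at 4wk, and 261 and 308 FPKM at 12wk. Again each time point lay above the one before, and the log2 fold change was 2.65 (SE 0.31, adjusted p = 3.5e-06) as deposited and 3.58 (SE 0.34, adjusted p = 1.1e-06) rescaled. Sel1l, the scaffold of the ligase, changed by 1.46 (SE 0.20, adjusted p = 1.9e-05) as deposited, and Syvn1 (Hrd1), the ligase, by 0.72 (SE 0.21, adjusted p = 0.0068) as deposited, which was not called, and 1.62 (SE 0.21, adjusted p = 2.1e-05) rescaled. Edem1 and Edem2 trim mannose from glycoproteins bound for degradation. Edem2 changed by 1.43 (SE 0.37, adjusted p = 0.0033) and Edem1 by 1.08 (SE 0.29, adjusted p = 0.0034) as deposited, and the Edem1 call was lost without E14.5 replicate 1 or 2 or 12wk replicate 2, with log2 fold changes from 0.96 to 0.99.

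Both stress transcription factors were called between embryo and adult after rescaling and neither as deposited. Atf4, which is controlled mostly at translation, was 108, 100 and 102 FPKM at E14.5, 130 and 130 FPKM at E16.5, 115 and 117 FPKM at E18.5, 149 and 138 FPKM at P5, 131 and 116 FPKM at 4wk, and 123 and 127 FPKM at 12wk. The E14.5 samples were the lowest and those of P5 the highest as deposited, with the adult samples between them, and the rescaled change was 1.06 (SE 0.11, adjusted p = 3.5e-06). Ddit3 (Chop), a factor induced by strong or lasting ER stress, was 14.1, 11.1 and 10.8 FPKM at E14.5, 13.2 and 11.4 FPKM at E16.5, 10.5 and 13.6 FPKM at E18.5, 14 and 14.2 FPKM at P5, 8.68 and 10.4 FPKM at 4wk, and 30.5 and 26.7 FPKM at 12wk. Both 12wk samples stood above the other 11, and its rescaled change between embryo and adult was 1.32 (SE 0.29, adjusted p = 0.0015).

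**Figure D3:**
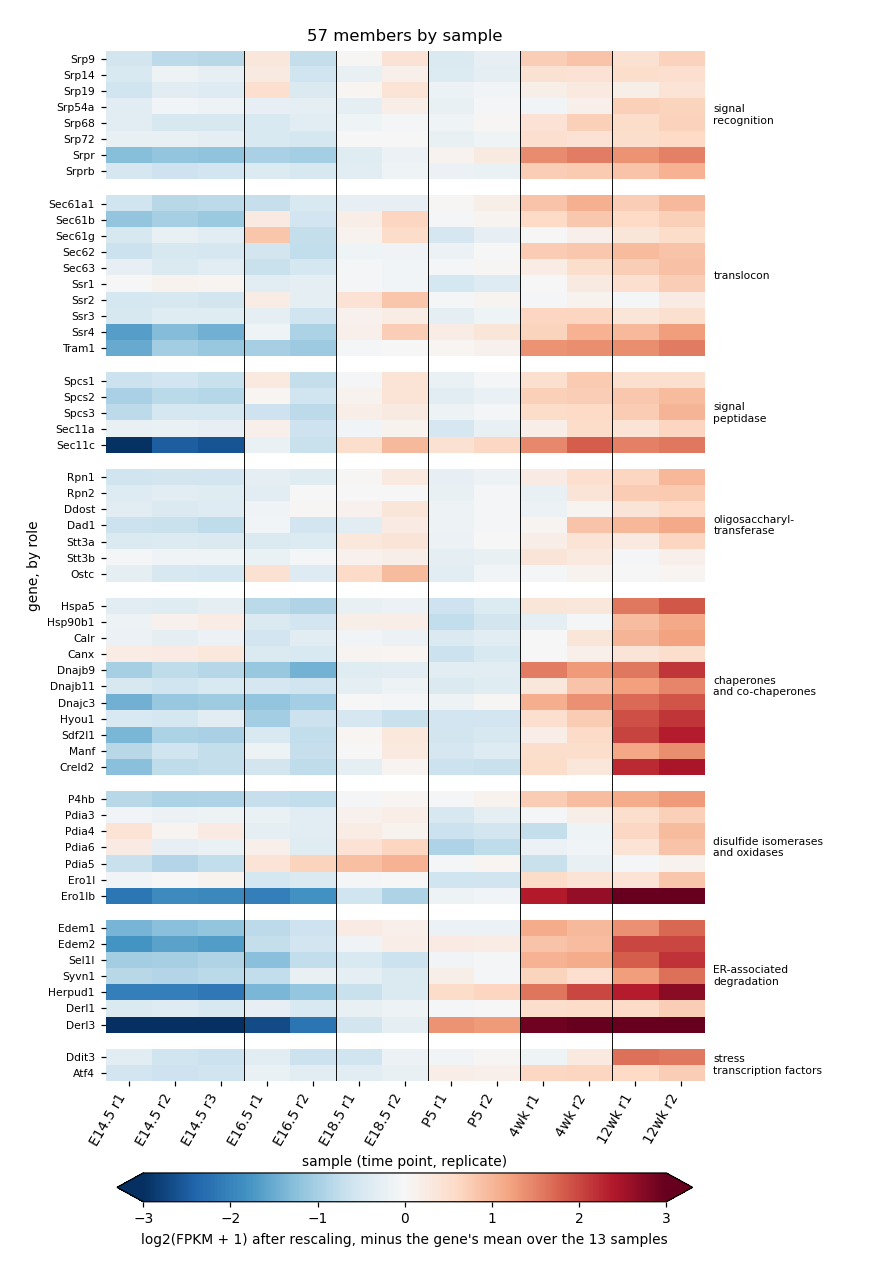
Rescaled log2(FPKM + 1) of the 57 members (rows, by role) in the 13 samples (columns), each gene shown as the difference from its own mean, with the colour scale ending at -3 and 3. The 12wk columns are the warmest for most chaperones and ER-associated degradation genes, and most oligosaccharyltransferase rows stay pale.

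Ratios of 2 members within a sample do not depend on the scaling between samples. The pairs were chosen after the values were seen, so they are given with no test. Derl3 over Derl1 was 0.0186, 0.0328 and 0.0357 in the samples of E14.5, 0.0696 and 0.125 in the samples of E16.5, 0.401 and 0.461 in the samples of E18.5, 1.37 and 1.28 in the samples of P5, 2.74 and 3.29 in the samples of 4wk, and 5.2 and 4.1 in the samples of 12wk. Ero1lb over Ero1l was 0.0784, 0.0987 and 0.0893 in the samples of E14.5, 0.127 and 0.15 in the samples of E16.5, 0.342 and 0.254 in the samples of E18.5, 0.722 and 0.759 in the samples of P5, 2 and 2.64 in the samples of 4wk, and 4.24 and 3.16 in the samples of 12wk. Derl3 passed Derl1 between E18.5 and P5, and Ero1lb passed Ero1l between P5 and 4wk. Sec11c over Sec11a was 0.179, 0.25 and 0.236 in the samples of E14.5, 0.987 and 1.21 in the samples of E16.5, 1.9 and 2.27 in the samples of E18.5, 2.45 and 2.24 in the samples of P5, 2.94 and 3.06 in the samples of 4wk, and 2.7 and 2.38 in the samples of 12wk. This shift came earlier, between E14.5 and E18.5. Hspa5 over Canx was 2.67 to 2.74 at E14.5, 4.59 and 5.18 at 4wk, and 9.22 and 10.2 at 12wk. Srpr over the particle protein Srp72 rose from 1.15 to 1.26 at E14.5 to 4.28 and 4.54 at 12wk, and Stt3a over Stt3b from 1.67 to 1.77 at E14.5 to 2.82 and 3.07 at 12wk.

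**Figure D4:**
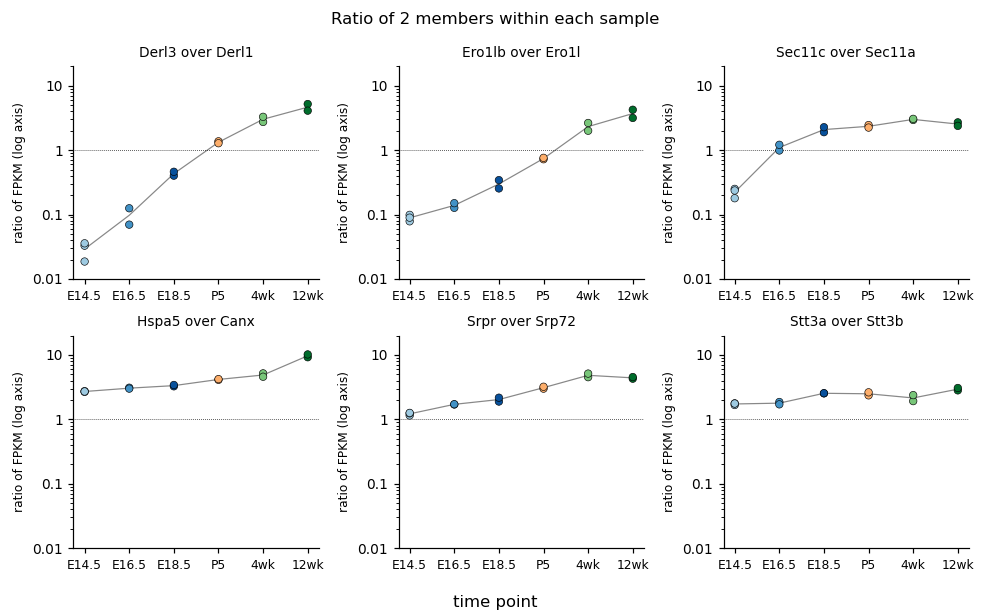
Ratio of the FPKM of 2 members within each sample (log axis) by time point, for 6 pairs, with a line through the means and a dotted line at a ratio of 1. The ratio of Derl3 to Derl1 crosses 1 at P5, that of Ero1lb to Ero1l at 4wk, and that of Sec11c to Sec11a around E16.5.

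Between embryo and P5 the share of members called higher was near that of all genes, at 5.26% as deposited and 7.02% rescaled. The share called lower was below that of all genes, at 1.75% as deposited and with no member rescaled. As deposited, 3 members were called higher, Derl3 (3.48, SE 0.78, adjusted p = 0.0074), Herpud1 (1.76, SE 0.39, adjusted p = 0.0074) and Ero1lb (1.34, SE 0.38, adjusted p = 0.02), and Pdia6 was called lower (-1.21, SE 0.26, adjusted p = 0.0064), against 4.14% and 8.14% of all genes. At an unadjusted p below 0.05, 7 members were higher and 10 lower as deposited, and 13 higher and 3 lower rescaled. After rescaling, the members called higher were the same 3 genes and Srpr (1.06, SE 0.26, adjusted p = 0.017), and none was lower in limma, against 5.57% and 3.91% of all genes. Pdia6 was between 104 and 110 FPKM at P5 and between 194 and 328 in the embryo, with no overlap, and its rescaled change was -0.94 (SE 0.30, adjusted p = 0.044). With 2 samples at P5 these counts are fragile. After rescaling, 8 members were called without E18.5 replicate 2, 1 without P5 replicate 2 and none without P5 replicate 1, when the lone P5 sample was taken to vary like the other groups.

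Between P5 and adult, as deposited, 5 members were called higher, Ero1lb (2.38, SE 0.41, adjusted p = 0.00067), Creld2 (1.38, SE 0.50, adjusted p = 0.037), Dnajb9 (1.30, SE 0.27, adjusted p = 0.002), Hyou1 (1.24, SE 0.37, adjusted p = 0.017) and Sdf2l1 (1.14, SE 0.53, adjusted p = 0.092). None was lower in limma, nor at an unadjusted p below 0.05, while 2.31% of all genes were called higher and 20.8% lower. Derl3 was not called as deposited (1.42, SE 0.84), although all adult samples lay above both P5 samples. Change over time within the embryo and within the adult enters the standard errors of this fit of 3 stages. After rescaling 23 members were higher and none lower (none at an unadjusted p below 0.05), against 6.07% and 8.56% of all genes. Scaling to the total without the 100 highest genes gave 11 calls in place of 23, and 12wk alone as the adult group gave 12 as deposited in place of 5. Of the 11 chaperones, 10, all but Canx, were among the 23 (Creld2, Dnajb9, Hyou1, Sdf2l1, Dnajc3, Hspa5, Dnajb11, Manf, Hsp90b1 and Calr), together with the oxidases and isomerases Ero1lb, Ero1l, Pdia6 and P4hb. The others were Derl3, Sel1l, Herpud1 and Edem1 for degradation, Srpr, Srprb and Srp9 for signal recognition, Tram1 of the translocon and Spcs2 of the signal peptidase. As deposited 3 members were called without either P5 replicate or without 12wk replicate 2, and 9 without 4wk replicate 1. After rescaling 11 were called without P5 replicate 1 and 14 without P5 replicate 2.

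The 5 consecutive steps between time points share their samples with each other and with the stages, so they are described side by side. From E14.5 to E16.5, 4 members were called higher on both scales, Sec11c, Pdia5 (1.31, SE 0.14, adjusted p = 0.00017), Derl3 (1.19, SE 0.19, adjusted p = 0.002) and Edem2 (1.08, SE 0.12, adjusted p = 0.00023), all as deposited. None was lower in limma (10 at an unadjusted p below 0.05 on each scale), against 4.17% of all genes higher and 0.983% lower as deposited, and 3.65% and 0.747% rescaled. Skeletal muscle markers summed to 1100 and 1430 FPKM at E16.5 and 213 to 534 at E14.5, and their part in this step was not tested. The 2 samples at E16.5 differed by more than 1.5 times in 12 members, and E16.5 replicate 1 was the higher in 9 of them, among which were Sec61g at 411 and 153 FPKM, Srp9 at 132 and 69.1, and Spcs1 at 199 and 109. At the other time points at most 1 member differed by that much.

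From E16.5 to E18.5, Derl3 (1.95, SE 0.21, adjusted p = 0.00032), Ero1lb (1.11, SE 0.17, adjusted p = 0.0036) and Sec11c (1.03, SE 0.18, adjusted p = 0.0063) were called higher as deposited, against 1.09% of all genes, and Dnajc3 (1.09, SE 0.15, adjusted p = 0.0031) and Tram1 (1.02, SE 0.15, adjusted p = 0.0036) joined them after rescaling, against 1.32%. No member was lower in limma or at an unadjusted p below 0.05, against 1.85% and 1.16% of all genes. The members as a whole had a positive sign in 53 of 57 as deposited, with a median of 0.33 beside -0.14 for all genes. Skeletal muscle markers summed to 1100 and 1430 FPKM in E16.5 samples and to 11.6 and 54.2 in E18.5 samples, and acinar markers to 2740 and 2580 and then to 35800 and 52000, and their part in this step was not tested. After rescaling 10 members were called without E16.5 replicate 1, and 3 without E16.5 replicate 2 or without E18.5 replicate 2.

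From E18.5 to P5, most members went the other way, with a median of -0.46 as deposited and -0.30 rescaled, beside -0.12 and 0.00 for all genes. As deposited Pdia6 (-1.54, SE 0.20, adjusted p = 0.00075), Ostc (-1.13, SE 0.21, adjusted p = 0.0045) and Pdia5 (-1.11, SE 0.15, adjusted p = 0.001) were called lower and Derl3 (1.58, SE 0.21, adjusted p = 0.00076) higher, against 2.97% of all genes lower and 2.07% higher. After rescaling Pdia6 (-1.39, SE 0.23, adjusted p = 0.0045) was lower, and Derl3 and Herpud1 (1.15, SE 0.16, adjusted p = 0.002) higher, against 1.79% and 2.38%, and 5 members were called without E18.5 replicate 1 or without P5 replicate 2. Of the 7 genes of ER-associated degradation as deposited, Edem1 had a log2 fold change of -0.52 (SE 0.16, adjusted p = 0.042), short of a call, and Derl1, Edem2, Syvn1 and Sel1l had values from 0.01 to 0.33. No chaperone was called on either scale in limma, with 8 of the 11 lower at an unadjusted p below 0.05 as deposited and 5 rescaled, and none higher.

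From P5 to 4wk, Ero1lb (1.98, SE 0.17, adjusted p = 8.6e-06), Dnajb9 (1.08, SE 0.17, adjusted p = 0.00043) and Derl3 (1.07, SE 0.21, adjusted p = 0.0013) were called higher and Pdia5 (-1.09, SE 0.15, adjusted p = 0.00019) lower as deposited, against 2.19% and 22.1% of all genes. After rescaling 14 members were higher, against 6.40% of all genes, and none lower in limma (1 at an unadjusted p below 0.05), against 8.75%. These were Ero1lb, Derl3, Dnajb9, Dnajc3, Srpr, Tram1, Edem1, Herpud1, Hyou1, Srp9, Sel1l, Creld2, Sec11c and Ero1l, with log2 fold changes from 1.07 to 2.63. The number called as deposited was 2 without 4wk replicate 1, the shallowest sample. Granular duct markers summed to 563 and 599 FPKM at P5 and 32600 and 39800 at 4wk, and their part in this step was not tested.

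From 4wk to 12wk, 5 of the 11 chaperones were called higher. Both scales called the same 8 members higher, and none lower in limma (1 at an unadjusted p below 0.05), against 2.68% of all genes higher and 2.48% lower as deposited, and 3.69% and 3.26% rescaled. As deposited the log2 fold changes were 1.87 (SE 0.19, adjusted p = 0.00012) for Creld2, 1.78 (SE 0.15, adjusted p = 4.4e-05) for Sdf2l1, 1.39 (SE 0.17, adjusted p = 0.00046) for Hyou1, 1.35 (SE 0.15, adjusted p = 0.00022) for Hspa5 and 1.17 (SE 0.15, adjusted p = 0.00073) for Hsp90b1. The other 3 were Ddit3 (1.49, SE 0.17, adjusted p = 0.00029), Pdia4 (1.20, SE 0.17, adjusted p = 0.0011) and Edem2 (1.08, SE 0.13, adjusted p = 0.00046). In each of these genes both 12wk samples lay above both 4wk samples, and the mean of Creld2 was 3.67 times, that of Sdf2l1 3.51 times, that of Ddit3 3.00 times and that of Hspa5 2.56 times as high. All 11 chaperones had a positive sign, with a median of 0.92 beside 0.00 for all genes, whereas the 10 translocon genes had a median of 0.09, the 8 signal recognition genes 0.05 and the 5 signal peptidase genes 0.14, with none called in limma (4 of the 23 higher at an unadjusted p below 0.05, none lower). The rise was not limited to the genes called. At an unadjusted p below 0.05 as deposited, all 11 chaperones were higher. So were 6 of the 7 isomerases and oxidases and 6 of the 7 degradation genes, with none lower. Of the 7 oligosaccharyltransferase genes, 4 were higher and 1 lower. Shares of all genes at an unadjusted p below 0.05 are not given, for this step or the others. Counts at that threshold therefore do not compare members with other genes. Summed over the role, chaperones had 1340 and 1370 FPKM at 4wk and 2790 and 3070 at 12wk, against 1430 and 1460, and 1460 and 1540, for the translocon. The rescaling factors of 4wk and 12wk samples were alike, and leaving out any 1 sample gave between 8 and 9 calls as deposited and between 7 and 11 rescaled.

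**Figure D5:**
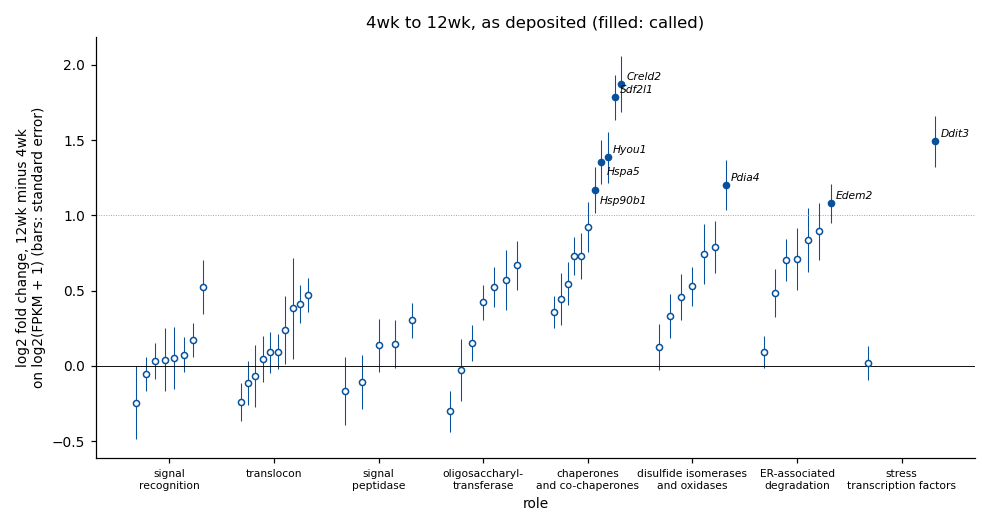
Log2 fold change from 4wk to 12wk (2 samples each) of the 57 members by role, as deposited, with standard errors from limma and filled points where called. The chaperones reach from 0.36 for Canx to 1.87 for Creld2, and the signal recognition, translocon and signal peptidase genes gather near 0.

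Other markers moved in the same step. The sum of 9 plasma and B cell markers was 12.2 and 4.16 FPKM at 4wk and 72.6 and 80.9 at 12wk, of which Igj, the joining chain of secreted immunoglobulins, made up 64.4 and 73.4, while Cd79a and Cd79b were at or below 1.07 FPKM at 12wk. Granular duct markers were 32600 and 39800 FPKM at 4wk and 62400 and 67700 at 12wk, and acinar markers 181000 and 186000 against 112000 and 124000. The like sums at 12wk hide differences between replicates 1 and 2 in single acinar markers. Amy1 was 625 and 6360 FPKM, Bpifa2 3770 and 33800 and Dcpp2 146 and 1200, while Pip (44900 and 30000) and Prol1 (61500 and 49800) went the other way. The 4wk samples were also the shallowest, at 5820000 and 7960000 reads, against 21820000 and 28430000 reads. The part of these in the rise of the chaperones was not tested. Of the 46 members with a promoter window, the 12 that hold either form of the ER stress element had a median log2 fold change of 0.77 in this step and the other 34 of 0.36, as deposited. The order was the other way from E14.5 to E16.5 (0.03 with and 0.15 without) and between embryo and P5 (-0.26 and -0.14). In the remaining comparisons as deposited it was the same, such as embryo against adult (0.62 and 0.03) and E18.5 to P5 (-0.37 and -0.49). All 12 were chaperones, degradation genes, isomerases or oxidases, and no gene of the other roles held an element. The split thus also follows role, whose part was not tested. In the step from 4wk to 12wk the ranges overlapped, from 0.36 to 1.87 and from -0.30 to 1.78, and Sdf2l1, Ddit3, Pdia4 and Edem2 were called without an element in their window.

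By time point, 25 of the 57 members had their highest mean at 12wk and 22 at E18.5 as deposited, where 8.04% and 11.3% of all genes tested had theirs. After rescaling 46 members were highest at 12wk and 3 at E18.5 (Ssr2, Ostc and Pdia5), beside 22.7% and 7.57% of all genes. The 22 members highest at E18.5 as deposited came mostly from signal recognition, the translocon, the signal peptidase and the oligosaccharyltransferase (Srp9, Srp19, Srp68, Srp72, Sec61b, Sec61g, Ssr2, Ssr3, Ssr4, Spcs1, Spcs2, Spcs3, Sec11a, Rpn1, Rpn2, Ddost, Stt3a, Stt3b and Ostc), with Pdia3, Pdia5 and Pdia6. No chaperone was among them. Together the members held 1.13% to 1.56% of all FPKM in the embryo and 1.09% to 1.11% in P5 samples, 0.706% to 0.751% in 4wk samples and 1.16% to 1.22% in 12wk samples. Without the 100 highest genes of the series, the share was between 1.64% and 1.73% at the first 2 time points, 2.42% to 2.53% in E18.5 samples and 2.07% to 2.25% in P5 samples. In the adult it was 2.80% to 2.99% in 4wk samples and 3.81% to 4.10% in 12wk samples.

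The regulators of these genes, which are not members, changed in their own ways. Xbp1, the factor that Ire1 activates by splicing, was 60.8, 55.7 and 54 FPKM at E14.5, 123 and 112 FPKM at E16.5, 177 and 207 FPKM at E18.5, 191 and 186 FPKM at P5, 186 and 168 FPKM at 4wk, and 189 and 170 FPKM at 12wk. It was called between embryo and adult after rescaling only, at 1.78 (SE 0.37), and had a log2 fold change of 0.02 from 4wk to 12wk, where 5 chaperones were called higher. Bhlha15 (Mist1), a factor of acinar cells, was 0.609, 4.97 and 4.39 FPKM at E14.5, 35.8 and 51.6 FPKM at E16.5, 77.7 and 74.9 FPKM at E18.5, 76.8 and 79.5 FPKM at P5, 187 and 131 FPKM at 4wk, and 167 and 134 FPKM at 12wk. Its log2 fold change between embryo and adult was 3.10 (SE 0.93) as deposited and 3.98 (SE 0.93) rescaled, and both were called. Of the sensors, Ern1 (Ire1 alpha) was called higher in the adult on both scales, at 1.15 (SE 0.18) and 1.98 (SE 0.17), while Eif2ak3 (Perk) and Atf6 were called after rescaling only, at 1.84 (SE 0.15) and 1.66 (SE 0.14). Mbtps1, the protease that activates Atf6, was called lower as deposited, at -1.60 (SE 0.08, adjusted p = 3e-09), and not rescaled. Ern2 (Ire1 beta) was 1.94 and 2.78 FPKM at E16.5 and listed at 0 in the 4 adult samples, and was not called between embryo and adult. None of these 7 regulators was called from 4wk to 12wk in limma, with none at an unadjusted p below 0.05 as deposited, and Ern1 and Atf6 higher at that threshold rescaled. Creb3l4, listed with them among 12 stress sensors and secretory transcription factors, was called lower in that step on both scales. Its levels were 16.8 and 33.3 FPKM at 4wk and 1.3 and 1.95 FPKM at 12wk.

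Further genes of the same pathway, from lists that do not overlap the members, moved in both directions as deposited. Of all genes tested between embryo and adult, 5.58% were called higher and 38.0% lower as deposited, and 13.8% and 14.7% rescaled. Lower calls as deposited are thus not particular to these lists. From 4wk to 12wk the shares of all genes were 2.68% and 2.48% as deposited, and 3.69% and 3.26% rescaled. Of 10 targets of the integrated stress response, 3 were higher and 1 lower between embryo and adult as deposited, and 5 and none rescaled (limma, 1 lower at an unadjusted p below 0.05), with Nupr1, a stress-induced nuclear protein, at 4.03 (SE 0.58, adjusted p = 2.6e-05) and Atf5, a transcription factor, at -1.41 (SE 0.19, adjusted p = 1.2e-05) as deposited. Of 19 further folding proteins tested, 2 were higher and 6 lower as deposited, and 9 and 3 rescaled. Among these Fkbp11, a prolyl isomerase of secretory cells, changed by 1.73 (SE 0.44, adjusted p = 0.0025) and Fkbp14, a prolyl isomerase that acts on collagens, by -2.78 (SE 0.20, adjusted p = 6.2e-08) as deposited, and both calls held after rescaling. The sum of 8 mesenchyme markers was 1880 to 2730 FPKM in the embryo and 260 to 526 in the adult, and their part in the lower genes was not tested. Of 27 genes that build or trim N-glycans, none was higher in limma (1 at an unadjusted p below 0.05) and 4 were lower as deposited (Tusc3, Alg13, Alg10b and Uggt2), and 3 and 1 rescaled, with Tusc3 at -1.83 (SE 0.14, adjusted p = 7.6e-08) as deposited. Of 19 further genes of ER-associated degradation, Os9, a lectin that delivers glycoproteins to the ligase, was called at 1.13 (SE 0.17, adjusted p = 3.9e-05) as deposited with none lower (8 at an unadjusted p below 0.05), and 5 were higher rescaled with none lower at either threshold. Of 21 genes of ER exit and retrieval, 1 was higher and 3 lower as deposited, and 6 and none rescaled (1 lower at an unadjusted p below 0.05), with Mcfd2, a cargo receptor subunit, at 1.51 (SE 0.21, adjusted p = 1.6e-05) and Sec23a, a subunit of the coat of exit vesicles, at -1.82 (SE 0.26, adjusted p = 2.4e-05) as deposited. From 4wk to 12wk, Alg12, a mannosyltransferase, was the only gene of all these lists called higher, at 1.06 (SE 0.26, adjusted p = 0.025), while Creb3l4 (-3.25, SE 0.32, adjusted p = 0.00011), Chac1 (-1.49, SE 0.52, adjusted p = 0.087) and Dnajc10 (-1.70, SE 0.21, adjusted p = 0.00046) were called lower on both scales. Chac1 was 3.18 and 19.5 FPKM at 4wk and 1.78 and 2.89 at 12wk. As deposited its log2 fold change was -0.34 without 4wk replicate 2, -1.25 without 12wk replicate 1 and -1.73 without 12wk replicate 2, and none of these was called. That of Alg12 was 0.57 without 4wk replicate 1 and 0.97 without 12wk replicate 1, and neither was called, while Creb3l4 and Dnajc10 were called without any 1 of the 4 samples.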

How the data were processed

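Total RNA of 13 whole submandibular gland samples was sequenced as 50 bp single-end reads from TruSeq libraries. According to the methods of the study, the authors aligned reads to mm9 with TopHat2 2.0.13 and Bowtie2 2.2.6, used featureCounts to count the reads that had a single location and fell on a single gene, and normalized with DESeq2 1.10.1. The deposited values are FPKM, 1 file per sample. In each sample a gene at its lowest levels steps in multiples of 1 read, from which depth was recovered. A median-of-ratios factor over the 13039 genes above 0 in all samples was between 1.148 and 1.38 in the embryo and between 0.617 and 0.714 in the adult, so the deposited values were also divided by these factors ("rescaled").

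Genes of at least 1 FPKM in at least 1 sample (14650 as deposited, 14601 rescaled) were tested on log2(FPKM + 1) with limma 3.58.1 (R 4.3.3), with a mean-variance trend, in a fit of 3 stages and in a fit of 6 time points. The pseudocount of 1 understates changes of genes near 1 FPKM. Other steps used Python 3.11.15, numpy 2.4.6, pandas 2.3.3 and matplotlib 3.10.9. The test was tested on simulated data for embryo against adult only, where 98.5% of 200 genes changed by 2 on the log2 scale were recovered among 13855, with no false call. Smaller changes and the steps between time points were not simulated.

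Every member is named; values in every sample are given for the members with the largest and the smallest rescaled change between embryo and adult in each role and for a few set by name. The members and lists were chosen with earlier results of these data known. Groups came from the sample labels. A marker gene of the lists is not reported here. The sources used here do not say how samples of a group were related by litter, so p-values measure the spread between these samples. Exons of 11 members overlap another gene (Srp54a, Srpr, Spcs1, Sec11a, Hsp90b1, Pdia3, Pdia4, Pdia6, Manf, Syvn1 and Ddit3), and the libraries were not stranded, so reads in the overlap were lost. Alternatives were another pseudocount, filters, thresholds, scalings, a replicate block, 12wk alone as adult, and leaving out each sample.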

Additional observations from a re-analysis of the deposited data

Results flagged for a closer look

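Stt3a, a catalytic subunit of the oligosaccharyltransferase, was 98.9 FPKM in 12wk replicate 2 and between 81.6 and 84.0 FPKM in the other 3 adult samples. The gap to the nearest sample was 0.85 of the range of the 4 samples, above Dixon's 95% critical value for 4 samples. It was the only one of 114 groups of 4 or more samples so marked, or 0.877%, where chance marks about 1 in 20.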

How the results depend on the processing

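No call of a member was reversed under any alternative. The counts below are given without the shares of all genes under the same alternative. They show how the counts of members move and do not compare members with other genes. With no minimum for the fold change, the number of members called became 38 (rescaled 47) between embryo and adult, 17 (13) between embryo and P5, 15 (41) between P5 and adult, 21 (21) from E14.5 to E16.5, 22 (26) from E16.5 to E18.5, 33 (21) from E18.5 to P5, 24 (47) from P5 to 4wk and 29 (29) from 4wk to 12wk. Median-of-ratios rescaling alone gave 29 between embryo and adult, 23 between P5 and adult, 5 from E16.5 to E18.5 and 14 from P5 to 4wk, and scaling to the total without the 100 highest genes gave 24, 11 and 5 for the first 3 of these. With 12wk alone as the adult group, 12 members were called between P5 and adult as deposited. Leaving out one sample at a time gave 12 to 15 (rescaled 28 to 32) calls between embryo and adult, 3 to 5 (0 to 8) between embryo and P5, 3 to 9 (11 to 28) between P5 and adult, 4 to 5 (3 to 6) from E14.5 to E16.5, 3 in every case (3 to 10) from E16.5 to E18.5, 4 to 6 (3 to 5) from E18.5 to P5, 2 to 4 (13 to 17) from P5 to 4wk and 8 to 9 (7 to 11) from 4wk to 12wk. A sample left alone at its time point was assumed to vary like the other groups. Replicate numbers did not pair the samples, since deviations of same-numbered samples had a mean correlation of -0.016 over 30 pairs, against 0.012 over 40 pairs of different number. With a replicate block, 15 (rescaled 28) members were called between embryo and adult and 4 (22) between P5 and adult, and the other counts were equal to those without it. Another pseudocount, filter, p threshold or variance trend kept every count within 1.5 times. Low depth of the 4wk samples and 2 samples per time point limit the steps, and the deposited scaling limits any statement on absolute levels.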
